A study of Homo sapiens with 18 samples.

Results

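Chromosome 19 carries the densest collection of zinc finger genes in the human genome, and these genes are described here across a time course in Raji, a cultured line of malignant B cells of Burkitt lymphoma origin that harbours Epstein-Barr virus. Members were the genes of chromosome 19 whose symbol is ZNF followed by a number and at most 1 letter. The reference gene table listed 263 such genes, and 233 of them, among 18418 genes in all, had a probe set naming that gene alone. Of the 233, 225 were protein-coding genes and 8 were transcribed pseudogenes. The other 30 had no such probe set: 16 were named only by probe sets that name several genes, and 14 by none. Where a gene had more than 1 probe set (5 members), the brightest probe set on average was used.

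Every group received the same 3 compounds in the labels, the 0 h group included: sodium n-butyrate at 3 mM, an inhibitor of histone deacetylases, phorbol ester at 0.05 µM, an activator of protein kinase C, and maslinic acid at 19 µM, a triterpene from plants such as the olive. Butyrate and phorbol ester are a pair commonly used to induce the lytic cycle of Epstein-Barr virus in infected B cell lines. Whether, and how far, the virus entered that cycle in these cells was not analysed here. Cells were harvested at 0, 4, 8, 12, 24 and 48 h, and each time had 3 arrays that the labels call biological replicates. Arms lacking a compound, or cells left untreated up to the later harvests, were not analysed here, so the compounds cannot be told apart from each other or from time in culture. Nothing in the labels says that replicates came from separate cultures, so p-values measure the spread between these 18 arrays. With RNA from whole cultures, fewer cells that express a gene and less RNA per cell cannot be told apart.

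Most zinc finger proteins of this chromosome pair a KRAB domain with an array of fingers that reads a DNA sequence. The KRAB domain recruits TRIM28, which brings the histone methyltransferase SETDB1, HP1 proteins and histone deacetylases to the bound site, and many of the targets are transposable elements. The genes arose by repeated tandem duplication, so neighbours resemble each other in sequence. Probes of such relatives can share signal. The probe sequences were not used here, and the part of cross-hybridisation in the results was not tested.

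Array medians lay between 4.03 and 4.25 on the log2 scale, and replicate 2 of 8 h had the narrowest spread, with an interquartile range of 2.37 against 2.74 to 3.16 for the rest. The 6 measured B cell markers had mean levels of 3.97 (BLK) to 9.50 (MS4A1), and the markers of T cells, monocytes, epithelium and fibroblasts had mean levels of 2.66 to 5.27. Summed over the 6 B cell markers, the level was 42.7 to 44.0 on the 0 h arrays and 36.5 to 41.2 on the 48 h arrays. Summed over the 3 T cell markers it was 9.1 to 9.7 and 9.8 to 12.6 on the same arrays. The part of these marker levels in the results was not tested. For 51 members (21.9%, against 15.7% of all genes), the mean level lay below the median of the arrays' lower quartiles, 3.03, where changes can lie hidden in background, and 2 of these 51 were called by the F test below.

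The question at each time was which members differed from 0 h. In a moderated F test across the 5 later times (limma, Benjamini-Hochberg adjusted p under 0.05 over all genes), 41 members (17.6%) were called, against a background of 16.4% of all genes. The share was 17.0% among the 247 zinc finger genes of the same naming on other chromosomes and 7.26% among the 1075 other genes of chromosome 19. These shares are descriptions, and the difference between them was not tested. For 26 of the 41, the largest difference from 0 h was a rise, which came at 8 h in 13 and at 48 h in 9. For 15 it was a fall, at 48 h in 8, at 24 h in 4 and at 4 h in 3. In each of the 41, the 3 arrays of that time lay wholly on 1 side of the 3 arrays of 0 h, as they did in 96.5% of the 3023 genes called by the F test. The time was chosen for its difference, so nothing is read from this count. The largest rises and falls named below were taken from members separated in this way. Their lack of overlap at that time, given gene by gene, is a description and adds nothing to the test. The 117 members of higher mean level held 34 of the 41 calls and the other 116 held 7.

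Against 0 h, 8 members were called at 4 h (6 higher and 2 lower; background 1.75%, 1.16% higher and 0.586% lower), 25 at 8 h (25 higher and 0 lower; background 6.68%, 3.5% higher and 3.18% lower), 15 at 12 h (9 higher and 6 lower; background 8.05%, 3.91% higher and 4.14% lower), 32 at 24 h (18 higher and 14 lower; background 12.5%, 6.74% higher and 5.74% lower) and 35 at 48 h (17 higher and 18 lower; background 15%, 6.92% higher and 8.11% lower). At 8 h the members therefore stood at 10.7% called higher, against 3.5% of all genes. Their median difference at 8 h was 0.11 on the log2 scale, against -0.02 over all genes, and 65.2% of them lay above 0, against 46.6%. At 24 and 48 h the share of members called, 13.7% and 15%, was near the background. The 5 comparisons share their 0 h arrays and are given side by side. Of the 25 members that rose by 8 h, 10 were also higher at 48 h, 14 were not called at 48 h and 1, ZNF682, was lower. In all, 56 members were called at 1 or more times, and 4 of them, ZNF555, ZNF791, ZNF28 and ZNF468, were called higher at all 5. Among all genes 21% were called at 1 or more times, against 24% of members, and 0.684% were called higher at all 5, against 1.72%.

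These counts moved with single arrays. The 8 called at 4 h became 5 without replicate 1 or replicate 3 of 0 h, 4, 2 and 5 without replicates 1, 2 and 3 of 4 h. The 25 called at 8 h became 14 and 13 without replicates 2 and 3 of 0 h, and 14 and 12 without replicates 1 and 3 of 8 h. Without replicate 2 of 8 h, the array of narrowest spread, 19 were called, and 15 of these were among the 25. The 15 called at 12 h became 9 without replicate 1 or replicate 3 of 0 h, and 8, 9 and 8 without replicates 1, 2 and 3 of 12 h. The 32 called at 24 h became 21 and 19 without replicates 1 and 2 of 24 h. Centring each array on its median changed the split at 4 h to 4 higher and 4 lower and at 12 h to 8 and 8, and quantile normalization changed it to 11 higher and 3 lower at 12 h.

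**Figure D1:**
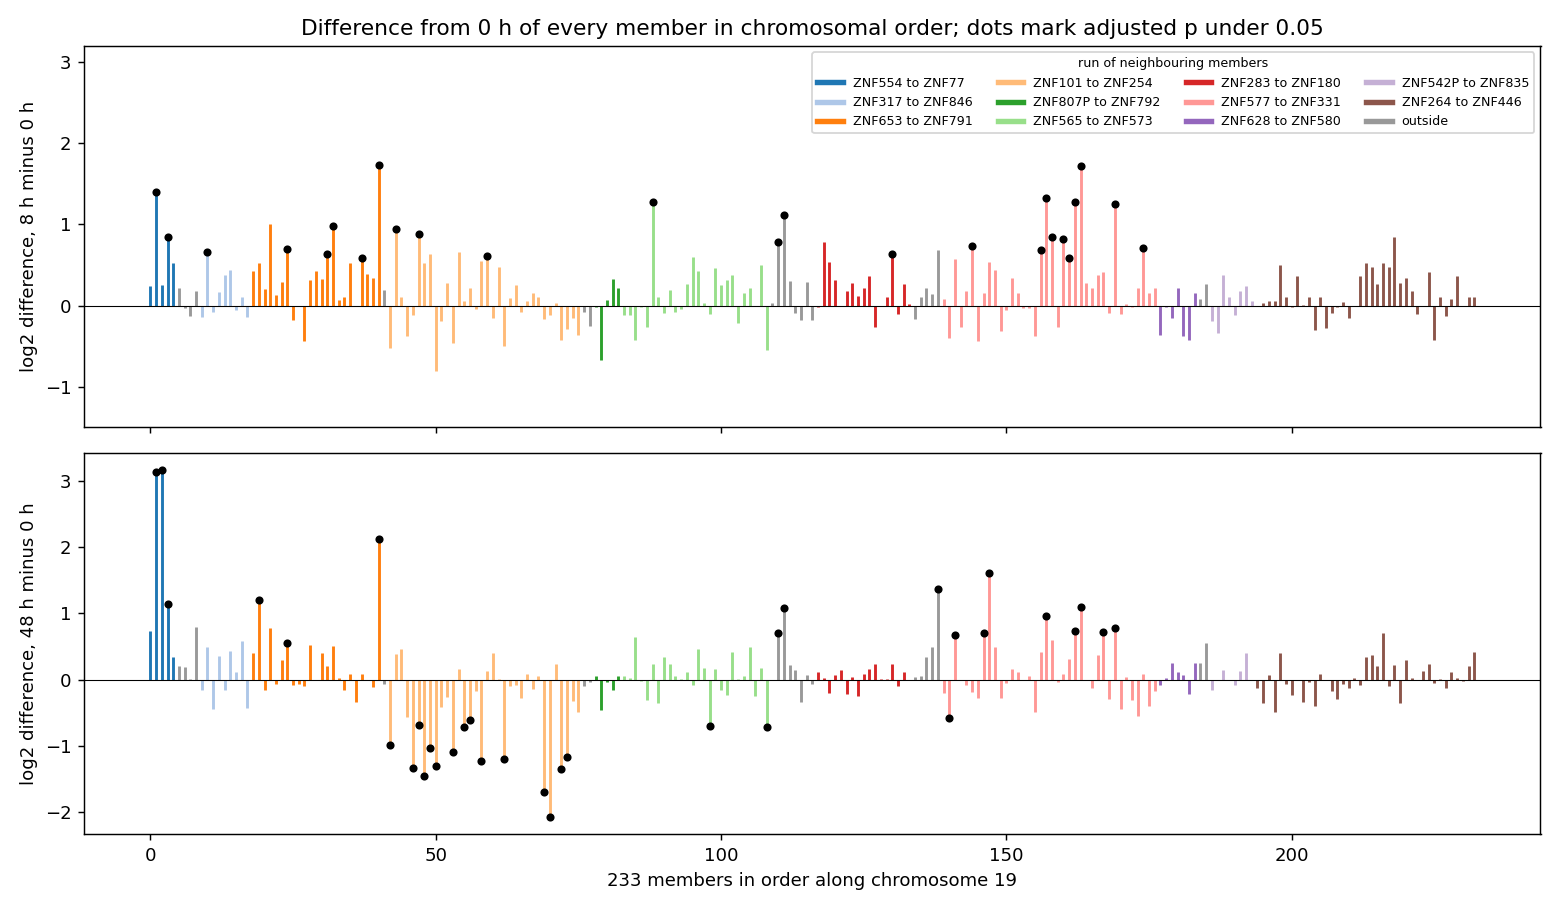
Log2 difference from 0 h (vertical axis) of the 233 members at 8 h and at 48 h, placed by their order along chromosome 19 (horizontal axis), with called members marked. At 48 h the calls below 0 gather in the run ZNF101 to ZNF254, where 15 members were lower, and the calls above 0 lie elsewhere on the chromosome.

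Neighbouring members were grouped into runs: members with at most 5 other protein-coding genes between them, in sets of 5 or more measured. There were 11 runs with 211 members, and 22 members lay outside them. The calls were spread unevenly over the runs. The run ZNF101 to ZNF254 had 34 measured members of 42, of which 12 were called by the F test. It held 12 of the 14 members called lower at 24 h and 15 of the 18 at 48 h, and 0 of its members were called higher at either time (background lower 5.74% and 8.11%). The run ZNF577 to ZNF331 had 38 measured members of 42, of which 12 were called by the F test. It held 10 of the 25 members called higher at 8 h (background higher 3.5%). In the run ZNF264 to ZNF446, with 39 measured members, 0 were called in any of the 5 comparisons or by the F test, and 4, 3, 0, 2 and 2 had an unadjusted p under 0.05 at 4, 8, 12, 24 and 48 h. Those are 10.3%, 7.69%, 0%, 5.13% and 5.13% of the run, against 13%, 17.6%, 20.9%, 22.7% and 26.3% of all genes.

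**Figure D2:**
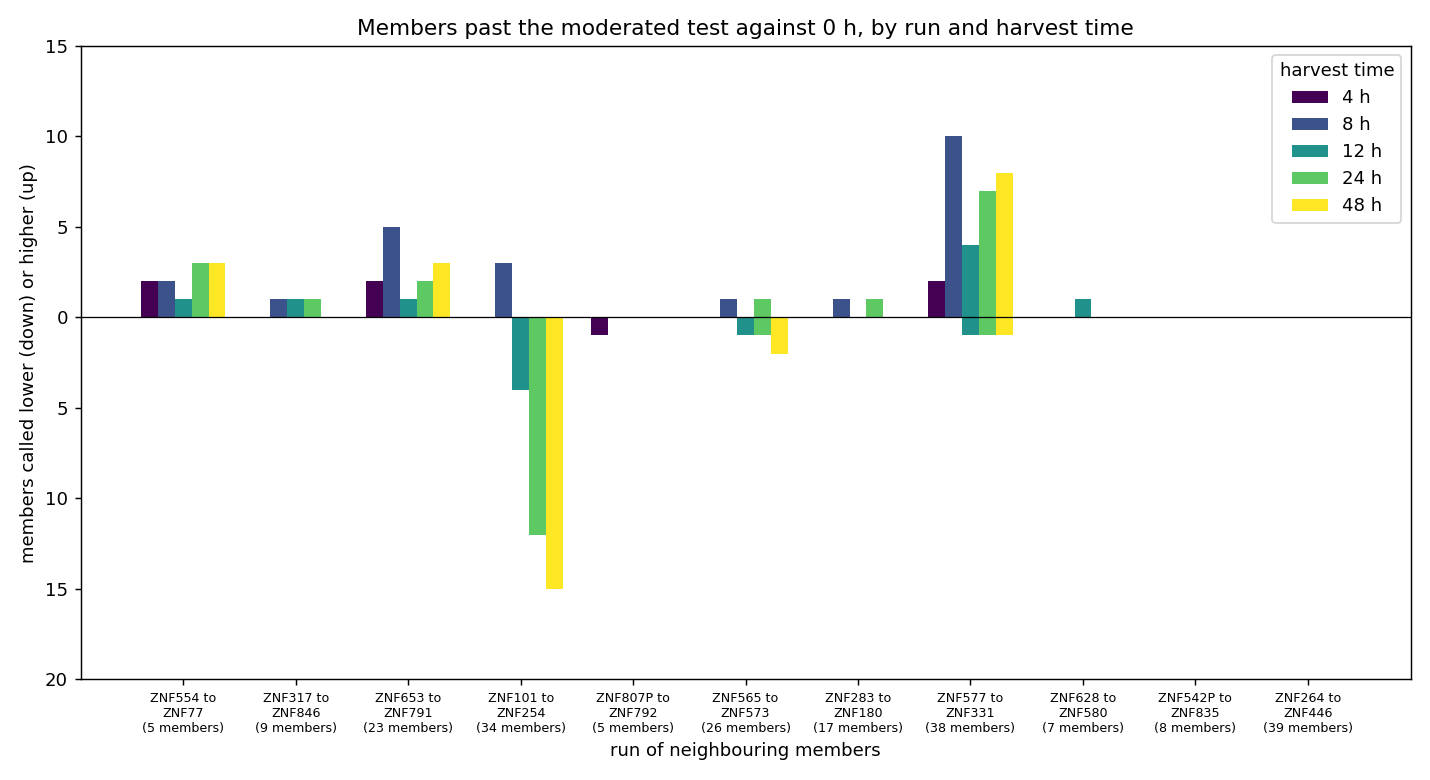
Number of members called higher (bars above 0) and lower (bars below 0) against 0 h at each harvest time, in the runs along chromosome 19, at an adjusted p under 0.05. The run ZNF101 to ZNF254 has 12 lower at 24 h and 15 lower at 48 h, and the run ZNF577 to ZNF331 has 10 higher at 8 h.

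In the run ZNF101 to ZNF254, 12 of 34 members were called lower at 24 h and 15 at 48 h. The median differences of the run from 0 h were -0.02, 0.04, -0.19, -0.51 and -0.45 in order of the 5 later times. The medians over all genes lay between -0.02 and 0.05. At 8 h 3 members of the run, ZNF682, ZNF14 and ZNF493, were called higher, and at 12 h 4 were called lower. In all 16 members were lower at 24 or 48 h, 11 of them at both times, and 11 of the 15 lower at 48 h had fallen by at least 2-fold. The other 18 members were not called lower at either time, and 10 members at 24 h and 9 at 48 h had a difference above 0. Averaged over the 34 members, the level was 6.25, 5.94 and 6.03 on the 0 h arrays and 5.72, 5.49 and 5.34 on the 48 h arrays. Arrays of the same time also differed. At 4 h the average was 6.32, 6.19 and 5.63, and replicate 3 lay below replicate 1 of 48 h. Without replicate 1 of 0 h, the array with the highest of the 0 h averages, the count lower fell to 6 at 24 h and 9 at 48 h. Without replicate 1 or replicate 2 of 24 h it was 7 at 24 h.

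Many promoters of this run resemble each other, and 5 are shown because 4 of the genes fell and ZNF91, among the same neighbours, was not called. Each is the 150 bases before the start site in RefSeq (GRCh38.p14), 5′ to 3′ in the direction of the gene. Capitals mark CCAAT, the motif of the NF-Y factor, and CCGGAAG, a motif of ETS factors, on either strand.
ZNF724 (chr19:23250395-23250544, minus strand): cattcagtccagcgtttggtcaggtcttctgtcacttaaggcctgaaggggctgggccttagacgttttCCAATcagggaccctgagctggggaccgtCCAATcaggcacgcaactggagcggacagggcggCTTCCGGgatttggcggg
ZNF730 (chr19:23116875-23117024, plus strand): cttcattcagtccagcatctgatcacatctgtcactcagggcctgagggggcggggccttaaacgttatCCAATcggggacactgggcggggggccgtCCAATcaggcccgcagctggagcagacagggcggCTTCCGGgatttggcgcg
ZNF486 (chr19:20167064-20167213, plus strand): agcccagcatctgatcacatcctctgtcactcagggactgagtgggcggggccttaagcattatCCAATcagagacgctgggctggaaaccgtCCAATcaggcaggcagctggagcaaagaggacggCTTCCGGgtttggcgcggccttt
ZNF431 (chr19:21141890-21142039, plus strand): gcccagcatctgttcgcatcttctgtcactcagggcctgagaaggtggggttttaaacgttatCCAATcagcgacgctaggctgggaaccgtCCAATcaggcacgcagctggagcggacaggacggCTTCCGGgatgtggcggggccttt
ZNF91 (chr19:23395472-23395621, minus strand): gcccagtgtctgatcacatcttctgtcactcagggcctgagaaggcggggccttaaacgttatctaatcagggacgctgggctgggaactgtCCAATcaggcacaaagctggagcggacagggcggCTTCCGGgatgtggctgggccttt

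ZNF724, ZNF730, ZNF486 and ZNF431 each hold 2 copies of CCAAT and 1 of CCGGAAG in these bases, and ZNF91 holds 1 of each. Over the 250 bases before the start, ZNF91 was 84.3% identical to ZNF431 and 83.9% to ZNF486, as close as ZNF486 was to ZNF431 (83.5%). Between all pairs of the run with a promoter in the table (27 members, 351 pairs), the median identity was 75.6% (42.6% to 92% over single pairs). Within the other runs compared it lay between 45.8% and 51.3%, and between this run and ZNF577 to ZNF331 it was 44.6%. The genes shown therefore share much of their sequence upstream, ZNF91 included, and they are not independent points. Identity was not compared between called and uncalled members across the run.

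ZNF724 had the largest fall of the run. Its levels were 7.70, 7.21 and 7.26 at 0 h and 5.60, 5.56 and 4.80 at 48 h, with no overlap. The fall was 4.2-fold, a log2 difference of -2.07 (SE 0.36) with an adjusted p of 0.000558, and the difference at 24 h was already -1.98. ZNF730, its neighbour, read 9.44, 8.55 and 8.52 at 0 h and 7.35, 7.53 and 6.52 at 48 h. All 3 late arrays lay below all 3 early ones, and the difference was -1.70 (SE 0.36; adjusted p 0.00289). ZNF486 read 8.85, 8.10 and 8.60 at 0 h, then 9.37, 9.41 and 8.97 at 4 h, and 7.62, 7.92 and 7.06 at 24 h. Its 24 h arrays lay below those of 0 h, and the difference was -0.98 at 24 h and -1.03 at 48 h (adjusted p 0.015 and 0.00895). The difference at 48 h missed the threshold without replicate 1 of 0 h or replicate 3 of 48 h, with an adjusted p of up to 0.0535.

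ZNF90 read 6.10, 5.55 and 6.08 at 0 h, 6.32, 6.83 and 6.13 at 8 h and 4.51, 4.33 and 4.51 at 48 h. The 48 h arrays lay more than 1 unit below every 0 h array, and the difference was -1.46 (SE 0.22; adjusted p 0.000124). ZNF738 read 6.76, 6.91 and 7.05 at 0 h and 5.74, 5.25 and 6.02 at 48 h, without overlap, a difference of -1.23 (SE 0.19; adjusted p 0.000201). Both genes had their highest mean of the course at 8 h, where the difference from 0 h, 0.52 and 0.55, was not called. ZNF682 passed in both directions: from 4.79, 5.13 and 4.83 at 0 h it was 5.97, 5.56 and 5.86 at 8 h and 4.26, 4.30 and 4.16 at 48 h. The differences were 0.88 (adjusted p 0.0181) and -0.68 (adjusted p 0.0401), and neither later group overlapped the 0 h arrays.

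ZNF675, whose protein was described as a partner of the signalling adaptor TRAF6, was lower at 12, 24 and 48 h. It read 6.67, 6.02 and 6.43 at 0 h, 4.88, 4.70 and 5.88 at 12 h and 4.35, 5.27 and 4.84 at 24 h. Both groups lay below the 0 h arrays, and the difference was -1.22 at 12 h and -1.55 (SE 0.32) at 24 h, with adjusted p-values of 0.0233 and 0.00294. ZNF826P, a transcribed pseudogene, read 6.24, 6.05 and 5.24 at 0 h and 4.32, 4.21 and 4.37 at 24 h, a difference of -1.54 (adjusted p 0.000865). ZNF43 followed the same course, with differences of -0.97 at 12 h, -1.04 at 24 h and -1.19 at 48 h (adjusted p 0.0272, 0.0127 and 0.00384). The fourth member lower at 12 h was ZNF253, at -0.96 (adjusted p 0.0494), and it was not called at 24 or 48 h.

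ZNF93 and ZNF91 are described as repressors of transposable elements, ZNF93 of LINE elements and ZNF91 of SVA elements. ZNF93 read 6.85, 5.78 and 6.56 at 0 h and 5.27, 5.46 and 4.47 at 48 h, and the groups did not overlap. The difference was -1.33, a 2.52-fold fall (SE 0.32, adjusted p 0.00746). ZNF91 read 7.59, 7.26 and 7.28 at 0 h and 8.16, 7.59 and 7.09 at 48 h, and the groups overlapped. Its difference was 0.24 (SE 0.27, adjusted p 0.658), and the F test gave an adjusted p of 0.821. ZNF714 fell by 0.82 at 24 h (adjusted p 0.0075), where its arrays read 5.73, 5.75 and 5.74. ZNF431 fell by 0.61 at 48 h (adjusted p 0.0122), and without replicate 2 of 48 h its adjusted p was 0.0511. ZNF101, ZNF85 and ZNF681 fell by 0.99, 1.09 and 1.17 at 48 h (adjusted p 0.0147, 0.0372 and 0.0424), and ZNF254 by 0.71 at 24 h (adjusted p 0.029).

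A choice of probe set touched the rest of the run. ZNF257, at a mean level of 9.73, differed by -0.25 at 24 h and -0.08 at 48 h and was not called. Its second probe set, at a mean level of 4.17, differed by -1.61 and -1.46 at the same times. ZNF208 differed by -0.10 at 48 h on the probe set used, and its 2 other probe sets by -0.87 and -0.11. For ZNF626, at a mean level of 8.92, the probe sets differed in sign at 48 h, -0.26 and 0.12, and it was not called. Levels of different probe sets depend on the probes and are not compared between genes.

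**Figure D3:**
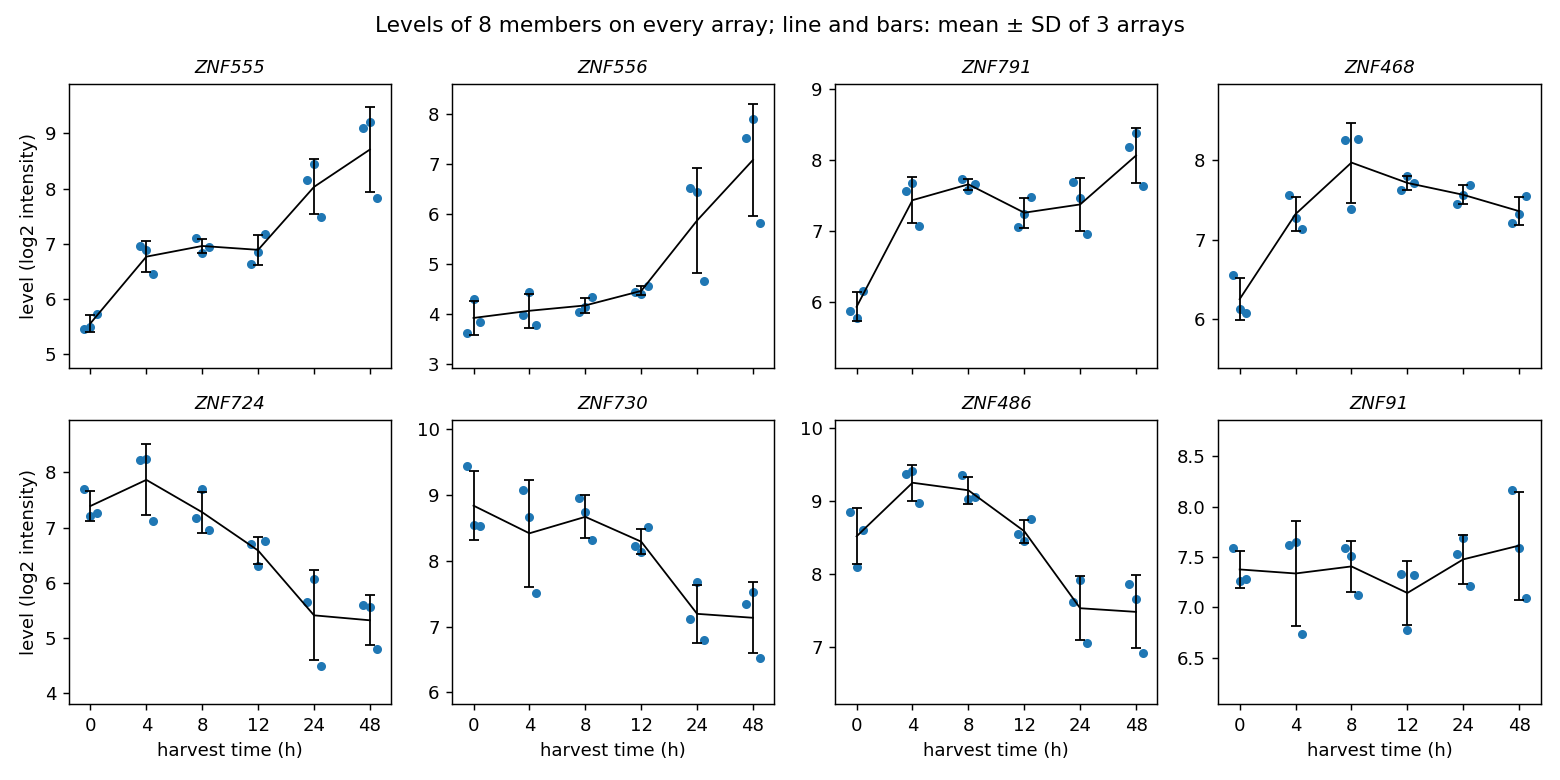
Log2 level on each of the 18 arrays (points) and mean ± SD of 3 arrays against harvest time in hours, for ZNF555, ZNF556, ZNF791, ZNF468, ZNF724, ZNF730, ZNF486 and ZNF91. ZNF555 and ZNF556 end at means of 8.70 and 7.08 at 48 h, ZNF468 peaks at a mean of 7.97 at 8 h, ZNF724 and ZNF730 end at 5.32 and 7.13, and ZNF91 overlaps its 0 h arrays throughout.

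In the run ZNF577 to ZNF331, 10 of 38 members were called higher at 8 h. Its median differences from 0 h were 0.01, 0.22, 0.05, 0.02 and 0.02 in order of the 5 later times. At 4 h 2 members were called higher, at 8 h 0 lower, at 24 h 7 higher and 1 lower, and at 48 h 8 higher and 1 lower, ZNF649 being the lower one at both times. From 4 to 8 h, 34 of the 38 members had a higher mean, against 42.5% of all genes. The count of 10 at 8 h became 5 without replicate 3 of 0 h and 6 without replicate 1 or replicate 3 of 8 h, and it was 5 in a fit of the 6 arrays of 0 and 8 h alone. Averaged over the 38 members, the level was 4.50, 4.50 and 4.37 at 0 h and 4.75, 4.76 and 4.80 at 8 h.

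Promoters of 3 members that rose at 8 h, and of ZNF320, which was not called, are shown as examples from the run. Bases, build and capitals are as above.
ZNF468 (chr19:52857620-52857769, minus strand): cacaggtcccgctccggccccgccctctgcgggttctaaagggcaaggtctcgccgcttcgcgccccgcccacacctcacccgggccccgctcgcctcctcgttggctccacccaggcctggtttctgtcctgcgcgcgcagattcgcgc
ZNF701 (chr19:52570137-52570286, plus strand): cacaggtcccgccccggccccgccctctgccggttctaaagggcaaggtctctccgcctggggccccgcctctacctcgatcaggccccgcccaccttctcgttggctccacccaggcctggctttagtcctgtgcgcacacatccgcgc
ZNF611 (chr19:52735045-52735194, minus strand): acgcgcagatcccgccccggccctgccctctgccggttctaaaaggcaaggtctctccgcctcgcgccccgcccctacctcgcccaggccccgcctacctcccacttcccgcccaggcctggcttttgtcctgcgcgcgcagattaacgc
ZNF320 (chr19:52897695-52897844, minus strand): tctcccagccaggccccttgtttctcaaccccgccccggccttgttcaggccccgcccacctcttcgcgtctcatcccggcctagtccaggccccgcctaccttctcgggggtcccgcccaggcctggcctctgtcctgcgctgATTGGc

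The windows of ZNF468, ZNF701 and ZNF611 hold neither CCAAT nor CCGGAAG in these bases. The longer windows counted below gave CCGGAAG in 4 of 7 members of the run called higher at 8 h. It was in 15 of 22 not called higher. CCAAT was in 1 of 7 and 8 of 22 of the same members. For CCGGAAG, the windows shown therefore do not stand for all members called higher. Over 250 bases ZNF468, ZNF701 and ZNF611 were 76.2% to 80% identical to each other and 46% to 55.6% identical to ZNF320. Identity was not compared between the members called higher and the others of the run, so nothing about the rise is read from these genes. Over the 29 members of the run with a promoter, the median pair was 47% identical, so these upstream bases were not near-copies across the run. Other parts of the genes were not aligned.

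ZNF468 had the largest rise of the run. It read 6.55, 6.12 and 6.08 at 0 h, 7.56, 7.27 and 7.14 at 4 h and 8.26, 7.39 and 8.27 at 8 h. All 6 later arrays lay above the 0 h arrays, and replicate 2 of 8 h lay below the other two. The difference at 8 h was 1.72 (SE 0.21, 3.3-fold, adjusted p 7.57e-05), and it was 1.10 at 48 h. ZNF28 read 7.49, 7.78 and 7.49 at 0 h, 8.69, 8.95 and 8.93 at 8 h and 8.31, 8.31 and 8.35 at 48 h. It rose at 4 h already, by 0.65 (adjusted p 0.0339), by 1.27 at 8 h (SE 0.15, adjusted p 7.57e-05) and was still 0.74 higher at 48 h. ZNF701 read 5.27, 5.36 and 5.47 at 0 h, 5.82, 5.12 and 5.61 at 4 h and 6.96, 6.31 and 6.83 at 8 h. The 4 h arrays overlapped those of 0 h and the 8 h arrays lay above both, with a difference of 1.33 from 0 h (SE 0.24, adjusted p 0.00216).

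ZNF347 read 5.01, 4.12 and 4.09 at 0 h and 5.72, 5.61 and 5.65 at 8 h. The difference was 1.25 at 8 h and 1.24 at 24 h (adjusted p 0.00407 and 0.00209), and at 48 h it was 0.78, where replicate 1 of 0 h overlapped the 48 h arrays. ZNF611, at 0.82, ZNF808, at 0.69, and ZNF761, at 0.71, rose at 8 h (adjusted p 0.00402, 0.0094 and 0.0271) and were not called at 12, 24 or 48 h. ZNF808 is a primate gene whose loss is known to impair pancreas development. ZNF137P, ZNF614 and ZNF600 rose at 8 h by 0.84, 0.73 and 0.58 and were likewise called at no other time.

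Other members of the run rose late. ZNF616 read 5.90, 5.24 and 5.90 at 0 h and 7.60, 7.53 and 6.74 at 48 h, without overlap, a difference of 1.61 (SE 0.26, adjusted p 0.000288). Its second probe set, at a mean level of 3.30, differed by 0.03, and the mean of both gave 0.82. ZNF160, ZNF613 and ZNF841 were higher at 48 h by 0.72, 0.67 and 0.71 (adjusted p 0.00763, 0.0163 and 0.0107), the first 2 also at 24 h. ZNF83 was lower at 12 h, by 0.72 (adjusted p 0.0289), and at no other time. ZNF350, known as a partner of BRCA1, and ZNF331, an imprinted gene, lie in the same run and were not called at any time.

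**Figure D4:**
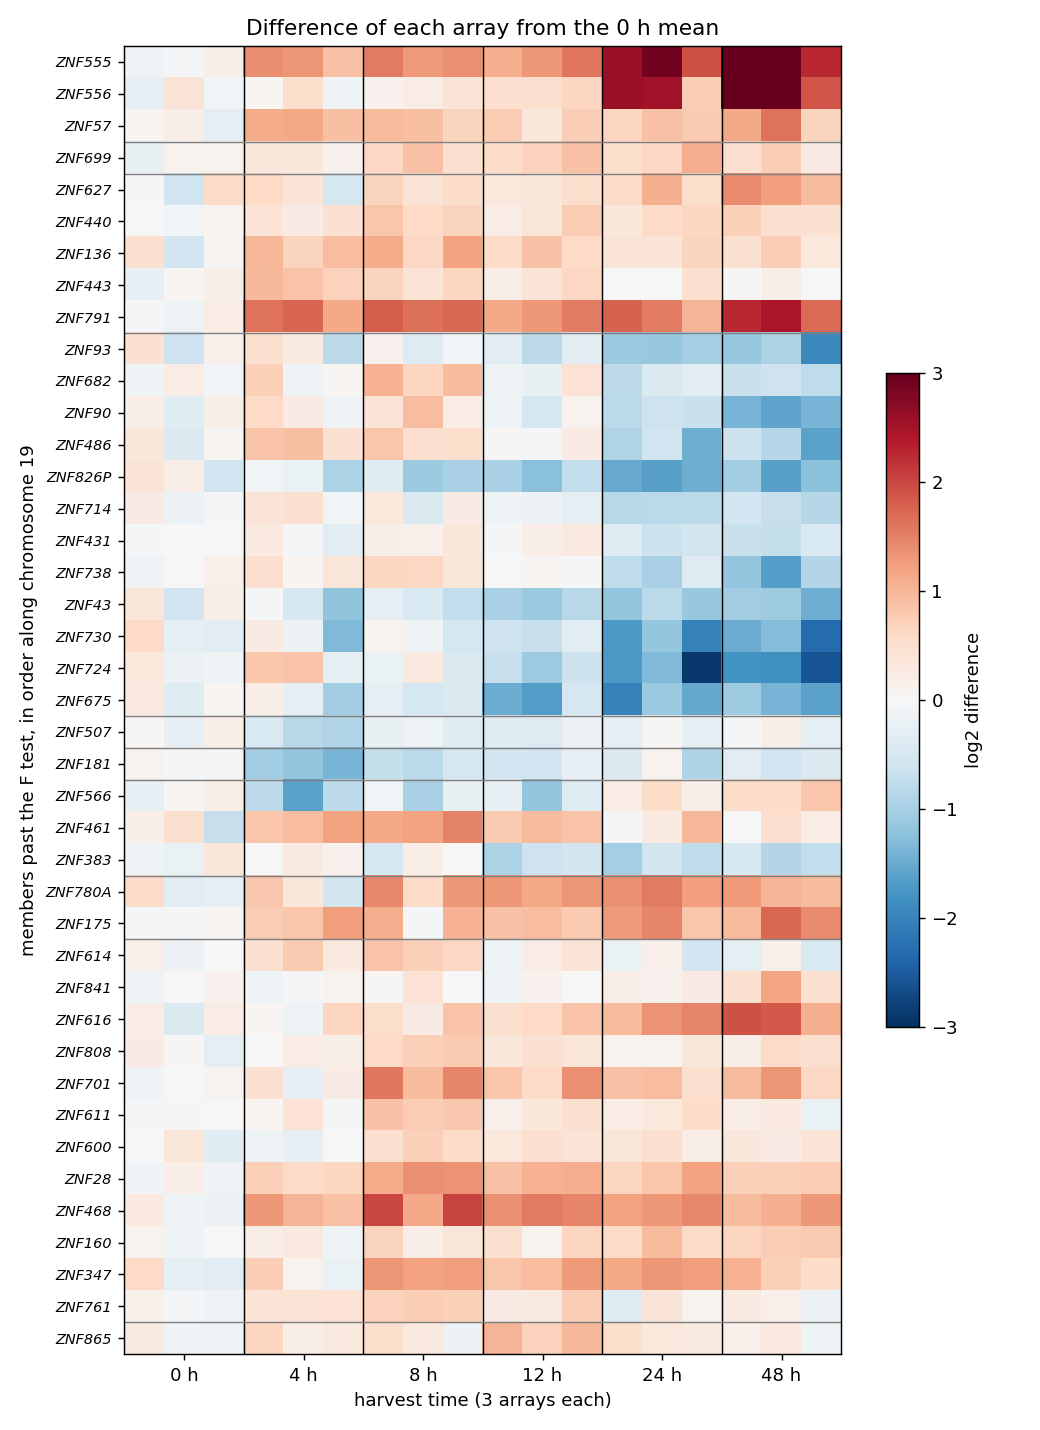
Log2 difference of each of the 18 arrays from the 0 h mean (colour, red higher and blue lower) for the 41 members called by the F test (rows). The columns are the 3 arrays at each of 0, 4, 8, 12, 24 and 48 h. Members of the run ZNF101 to ZNF254 are blue at 24 and 48 h, and those of the run ZNF577 to ZNF331 are red at 8 h. The difference of the group means of ZNF468 at 8 h was 1.72.

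The 2 largest rises stood side by side at the other end of the chromosome, in the run ZNF554 to ZNF77, whose 5 members were all measured. In this run 3 members were called higher at 24 and 48 h (background higher 6.74% and 6.92%), and the other two, ZNF554 and ZNF77, differed by 0.73 and 0.35 at 48 h and were not called. The promoters of ZNF555 and ZNF556 are shown because both genes rose more than 8-fold.
ZNF555 (chr19:2841325-2841474, plus strand): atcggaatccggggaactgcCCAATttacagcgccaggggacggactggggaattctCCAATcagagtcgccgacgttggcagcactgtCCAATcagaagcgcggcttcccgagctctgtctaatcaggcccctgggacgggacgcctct
ZNF556 (chr19:2867185-2867334, plus strand): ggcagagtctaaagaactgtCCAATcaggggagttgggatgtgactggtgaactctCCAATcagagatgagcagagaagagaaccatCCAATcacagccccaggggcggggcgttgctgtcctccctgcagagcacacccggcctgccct

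Both windows hold 3 copies of CCAAT in these bases, and over 250 bases the 2 promoters were 53.7% identical. ZNF555 read 5.45, 5.5 and 5.73 at 0 h, 6.96, 6.89 and 6.45 at 4 h, 8.16, 8.45 and 7.48 at 24 h and 9.10, 9.20 and 7.82 at 48 h. Every later array lay above the 0 h arrays, and replicate 3 of 48 h lay below the other 48 h arrays and within the range of 24 h. The difference was 1.20 at 4 h and 3.14 at 48 h (SE 0.30, 8.83-fold, adjusted p 9.79e-07). ZNF556 read 3.62, 4.30 and 3.84 at 0 h and stayed between 3.78 and 4.56 up to 12 h. At 24 h it read 6.52, 6.43 and 4.65 and at 48 h 7.52, 7.90 and 5.81, above every 0 h array, with replicate 3 the lowest at both times. The difference at 48 h was 3.16 (SE 0.46, 8.95-fold, adjusted p 9.43e-05). ZNF57 was higher from 4 h, by 1.07 (adjusted p 0.0122), and by 1.15 at 48 h (adjusted p 0.000707), and it was not called at 12 h (0.61, adjusted p 0.0788).

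In the run ZNF653 to ZNF791, with 23 measured members of 28, 5 (21.7%) were higher at 8 h and 3 (13%) at 48 h, against 3.5% and 6.92% of all genes, and 0 were lower at any of the 5 times. Its median difference was 0.23 at 4 h and 0.34 at 8 h, above the 0.01 and 0.22 of the run ZNF577 to ZNF331, and 87% of its members lay above 0 at 8 h, against 46.6% of all genes. The difference between the runs was not tested. ZNF791 was the largest, at 5.87, 5.77 and 6.16 at 0 h, 7.56, 7.68 and 7.07 at 4 h and 8.19, 8.38 and 7.63 at 48 h. No later array overlapped the 0 h arrays, and the difference was 1.5 at 4 h and 2.13 at 48 h (SE 0.22, 4.38-fold, adjusted p 2.62e-06). ZNF136 rose at 8 h by 0.98 (adjusted p 0.0135), and ZNF440 by 0.70 at 8 h and 0.55 at 48 h (adjusted p 0.00889 and 0.0192). ZNF443 had a short rise: it read 2.36, 2.66 and 2.79 at 0 h, 3.58, 3.47 and 3.29 at 4 h and 2.65, 2.79 and 2.61 at 48 h. Its difference was 0.85 at 4 h (adjusted p 0.0165), 0.58 at 8 h (adjusted p 0.0495) and 0.09 at 48 h. The mean level of ZNF443, 2.95, lay below the lower quartile of 3.03. ZNF627 rose later, by 1.21 at 48 h (adjusted p 0.00574), and the transcribed pseudogene ZNF788P by 0.64 at 8 h (adjusted p 0.0348).

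The other runs held few calls. In ZNF565 to ZNF573 (26 members), ZNF461 read 3.29, 3.56 and 2.40 at 0 h and 4.22, 4.29 and 4.57 at 8 h, a rise of 1.27 (SE 0.27, adjusted p 0.00719), and ZNF383 was lower from 12 h on, by 0.71 and 0.70 at 12 and 48 h (adjusted p 0.0383 and 0.0244). ZNF790 was higher at 24 h (0.73) and ZNF573 lower at 48 h (-0.72). ZNF566 read 4.90, 5.21 and 5.35 at 0 h and 4.37, 3.55 and 4.36 at 4 h; it passed the F test, and its difference at 4 h was -1.06 with an adjusted p of 0.0568. ZNF146, which has fingers without a KRAB domain, differed by -0.47 at 24 h and was not called. In ZNF807P to ZNF792 (5 members), ZNF181 read 5.77, 5.61 and 5.59 at 0 h and 4.62, 4.48 and 4.27 at 4 h. The difference was -1.20 (SE 0.21), with an adjusted p of 0.00579, and at 48 h it read 5.35, 5.05 and 5.22, a difference of -0.45 that was not called.

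In ZNF317 to ZNF846 (9 members), ZNF699 was higher at 8, 12 and 24 h, by 0.66, 0.71 and 0.74, with an adjusted p of 0.00872 at 24 h. Without replicate 1 of 0 h or replicate 3 of 24 h it was not called, with an adjusted p of up to 0.0504. In ZNF628 to ZNF580 (7 members), ZNF865 was higher at 12 h, by 0.90 (adjusted p 0.0062). In ZNF283 to ZNF180 (17 members), ZNF235 was higher at 8 and 24 h, by 0.64 and 0.54, and ZNF404 differed by 0.78 at 8 h with an adjusted p of 0.0794. In ZNF542P to ZNF835 (8 members), 0 were called, and ZNF71 had the largest difference, 0.46 at 4 h (adjusted p 0.312). Outside the runs, ZNF780A was higher from 8 h on, with 6.09, 5.20 and 5.27 at 0 h and 6.88, 7.07 and 6.76 at 24 h, a difference of 1.38 (SE 0.30, adjusted p 0.00396), and its relative ZNF780B was higher at 8, 24 and 48 h by 0.78, 0.72 and 0.70. At 24 h, replicate 1 of ZNF780B lay within its 0 h arrays. ZNF507 was lower at 4 h, by 0.73 (adjusted p 0.0284).

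Among members with a described role, ZNF175, reported as an antiviral repressor in macrophages, was higher late. It read 6.53, 6.54 and 6.63 at 0 h and 7.51, 8.30 and 7.99 at 48 h, without overlap, a difference of 1.37 (SE 0.27, adjusted p 0.00149), and 1.19 at 24 h. ZNF274, which binds the zinc finger gene clusters themselves and recruits SETDB1 there, read 4.95, 5.15 and 5.36 at 0 h and 5.16, 5.06 and 5.10 at 48 h. The groups overlapped, and the F test gave an adjusted p of 0.584. ZNF304, which recruits co-repressors, differed by 0.93 at 4 h (SE 0.35, adjusted p 0.234), ZNF473, which acts in histone mRNA end processing, by 0.53 at 24 h (adjusted p 0.207), and ZNF382 by -0.53 at 24 h (adjusted p 0.105). ZNF224, ZNF350, ZNF331 and ZNF536 were not called either, with largest differences of -0.24, -0.35, -0.42 and -0.18. ZNF224, ZNF350, ZNF382 and ZNF536 had mean levels of 2.47, 2.60, 2.78 and 3.02, below the lower quartile of 3.03.

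From each time to the next, few members differed. From 4 to 8 h, 1 member, ZNF701, was called, by 1.18 (adjusted p 0.0498), against 0.223% of all genes (0.119% higher and 0.103% lower). From 8 to 12 h, 0 members were called, and 18 (7.73%, against 6.63% of all genes) had an unadjusted p under 0.05; the background was 0%, and a limma fit with array weights called 5. From 12 to 24 h, 2 were called, both lower and both in the run ZNF101 to ZNF254, against 1.37% of all genes (0.814% higher and 0.554% lower): ZNF486 by -1.05 (adjusted p 0.0483) and ZNF431 by -0.68 (adjusted p 0.0397). With arrays centred on their medians, the 2 calls of that step were 1 higher and 1 lower. From 24 to 48 h, 0 were called, and 14 (6.01%, against 9.47% of all genes) had an unadjusted p under 0.05; of all genes 0.402% were called (0.0706% higher and 0.331% lower). These counts rested on single arrays: the count of 1 from 4 to 8 h was 0 in most fits that left out an array, the count of 2 from 12 to 24 h was 0 or 1 in most, and the count from 24 to 48 h was 2 without replicate 3 of 48 h.

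Promoter letters were then counted over the members, in the 250 bases before and 50 after the start. Of the 233 members, 200 had a promoter in the RefSeq table (GRCh38.p14), which held 27305 genes, and a gene with several starts was counted as holding a motif if any of its windows did. The ETS motif CCGGAAG, searched on both strands as were all motifs, was in 46.5% of members and 12.2% of all genes. It was in 20 of 27 members of the run ZNF101 to ZNF254, 24 of 36 of the uncalled run ZNF264 to ZNF446 and 0 of 5 of the run ZNF554 to ZNF77. Within ZNF101 to ZNF254 it was in 10 of the 14 called lower at 24 or 48 h and in 10 of the 13 not called lower. The GC box GGGCGG was in 72% of members and 48.3% of all genes, and the CRE TGACGTCA in 4% and 2.25%.

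The AP-1 motif TGANTCA was in 5.5% of members and 9.37% of all genes, and in 0 of 27 of the run ZNF101 to ZNF254. The E box CACGTG was in 5% of members and 8.77% of all genes, the EGR1 motif GCGTGGGCG in 1.5% and 0.96%, and the NRF1 motif in 4% and 1.52%. The matches of the GC box and of the EGR1 motif can overlap. CCAAT was added after the sequences had been seen. It was in 56% of members and 39.7% of all genes, in 27 of 27 of the run ZNF101 to ZNF254, 5 of 5 of ZNF554 to ZNF77, 19 of 20 of ZNF653 to ZNF791 and 9 of 29 of ZNF577 to ZNF331. At least 2 copies were in 12 of 14 members of ZNF101 to ZNF254 called lower and 7 of 13 not called lower, against 12.9% of all genes. They were also in 5 of 5 members of ZNF554 to ZNF77, where 3 were called higher at 24 and 48 h. The runs in which CCAAT was in most members thus include members called lower and members called higher. A match of letters is a description, and binding was not measured.

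The partners through which KRAB proteins act were read from a list of 26 genes (KRAB co-repressor machinery), all measured. By the F test 8 of 26 (30.8%) were called, against 16.4% of all genes. The median level of the list was 6.91, against 4.47 over all genes, and among the zinc finger members most calls fell at higher levels. Genes of like level were not compared, so the shares below are descriptions. Against 0 h, 0 were called at 4 h, 2 higher and 3 lower at 8 h, 0 higher and 5 lower at 12 h, 2 higher and 5 lower at 24 h, and 1 higher and 7 lower at 48 h. Called lower were thus 11.5%, 19.2%, 19.2% and 26.9% of the list from 8 to 48 h, against 3.18%, 4.14%, 5.74% and 8.11% of all genes. Called higher were 7.69%, 0%, 7.69% and 3.85%, against 3.5%, 3.91%, 6.74% and 6.92%. At 4 h, 7 (26.9%) had an unadjusted p under 0.05, against 13% of all genes. The median difference at 48 h was -0.16 for the list and 0.05 over all genes. The lower members at 48 h included the HP1 genes CBX5 and CBX3, the histone methyltransferases SUV39H1 and SUV39H2, the DNA methyltransferase DNMT1, the remodeller CHD3 and TASOR of the HUSH complex.

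CBX5 read 10.06, 10.22 and 10.27 at 0 h and 8.74, 8.64 and 8.73 at 48 h. Its groups lay more than 1 unit apart, and the difference was -1.48 (adjusted p 0.000178), after -1.09 at 12 h and -1.25 at 24 h. SUV39H1 and SUV39H2 fell by 1.08 and 1.00 at 48 h (adjusted p 0.00518 and 0.00512), and CBX3, CHD3, TASOR and DNMT1 by 0.55, 0.81, 0.60 and 0.65. ATF7IP, the partner that stabilises SETDB1, was lower at 8 and 12 h, by 1.12 and 1.17 (adjusted p 0.0042 and 0.00242), and not called at 24 or 48 h. MORC3 was higher at 8, 24 and 48 h, by 0.78, 0.92 and 0.96, MPHOSPH8 at 8 h by 0.82 and CHD4 at 24 h by 0.61.

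TRIM28, the protein that KRAB domains bind, read 5.92, 6.41 and 5.36 at 0 h and 5.27, 5.81 and 5.59 at 48 h, and the groups overlapped. The difference was -0.34 (adjusted p 0.516). SETDB1 differed by -0.94 at 4 h (adjusted p 0.21) and -0.43 at 48 h (adjusted p 0.483), and the deacetylases HDAC1 and HDAC2 by -0.06 and -0.15 at 48 h (adjusted p 0.887 and 0.596). CBX1, the remaining HP1 gene, differed by -0.10 at 48 h (adjusted p 0.752).

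**Figure D5:**
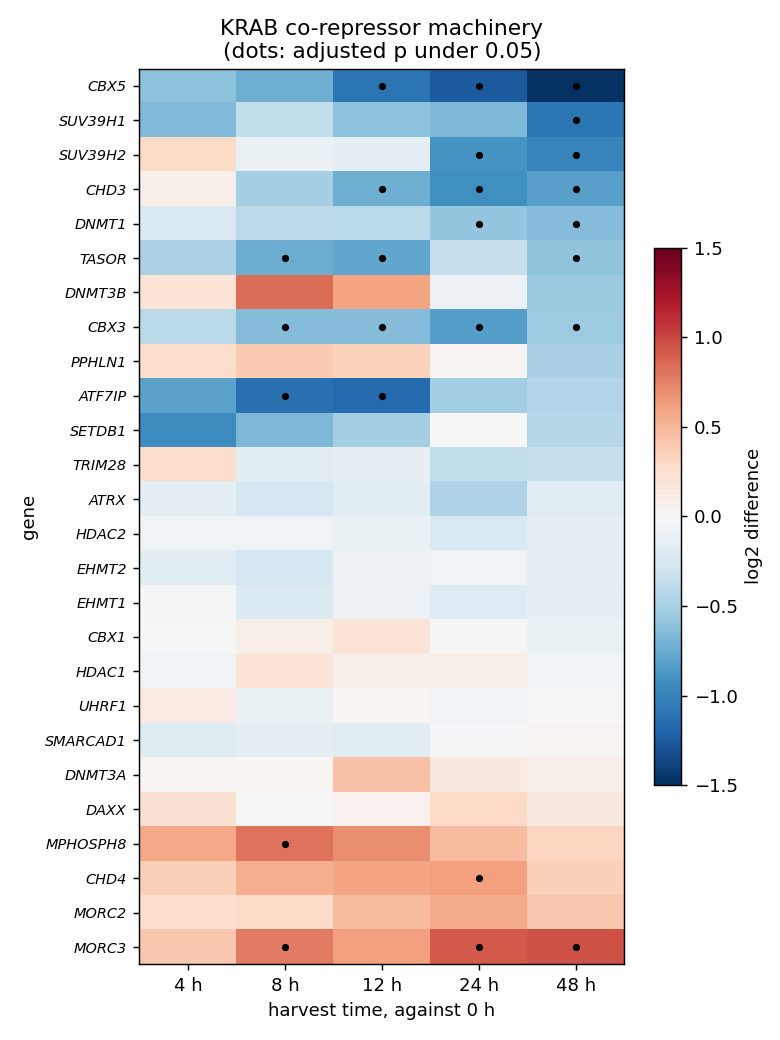
Log2 difference from 0 h (colour, red higher and blue lower) of the 26 partner genes (rows) at 4, 8, 12, 24 and 48 h (columns), with dots where the adjusted p was under 0.05. CBX5 is at -1.48 at 48 h and MORC3 at 0.96, while TRIM28 at -0.34 carries no dot.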

How the data were processed

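Whole-culture mRNA of Raji cells was measured on 18 Affymetrix arrays, 3 at each of 6 harvest times. The labels' protocols describe column-purified RNA and hybridisation of biotin-labelled cDNA. The deposited values are log2 intensities, 1 per probe set. Base 2 is inferred from how far the values extend, and the background correction, normalization, software and annotation build are not given in the sources used here. Values were used as deposited.

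Of 33297 probe sets, 19460 named exactly 1 gene and 1754 several in the platform's gene table. Each of 18418 genes was represented by its probe set of highest mean. Group means were modelled over the 18 arrays together (limma 3.58.1, R 4.3.3; 12 residual and 5.58 prior degrees of freedom). It gave the moderated F test and two-sided tests of each time against 0 h and against the time before it, with p-values adjusted by the Benjamini-Hochberg method over all genes within each comparison. A call is an adjusted p under 0.05, and levels are given for each array. The scripts were tested on simulated data. Python 3.11.15 with pandas 2.3.3, matplotlib 3.10.9 and Biopython 1.88 served for promoters and plots. Promoter identity is the share of identical bases in a global alignment of 250 bases. For identities and for the sequences shown, a gene with several promoter windows was represented by the first listed. RefSeq coordinates are given only for promoters, since the build of the array annotation is not known.

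Members and lists were chosen with earlier results of these data known. Named members are the 12 largest rises and 12 largest falls among those called by the F test whose arrays at the time of largest difference lie wholly on 1 side of those of 0 h, and also the 5 of highest mean level, members called between consecutive times, those with described roles and the largest difference of each run. Others were named after their values were seen, to spell out a count. Protein features (finger number, KRAB domain) were not analysed here. Precision rests on the number of arrays. The alternatives were quantile normalization, median centring, averaging a gene's probe sets, leaving out the genes of lowest mean, array weights, the replicate number as a block, the 6 arrays of a comparison alone, and leaving out each array.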

Additional observations from a re-analysis of the deposited data

How the results depend on the processing

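Counts of called members moved by over 1.5 times with array weights, in fits of fewer arrays and when single arrays were left out. With array weights, 68 members were called by the F test in place of 41, 14 in place of 8 at 4 h, 39 in place of 25 at 8 h, 20 in place of 1 from 4 to 8 h, 5 in place of 0 from 8 to 12 h and 10 in place of 2 from 12 to 24 h; the counts at 12, 24 and 48 h, 22, 44 and 33, stayed within 1.5 times. The weights of the 3 arrays of 8 h were 5.19, 0.246 and 0.826. In a fit of the 6 arrays compared alone, 8 members were called in place of 25 at 8 h, 5 in place of 10 in the run ZNF577 to ZNF331 at 8 h, and 0 in place of 1 from 4 to 8 h; these fits hold fewer arrays. With the replicate block, 0 members were called from 4 to 8 h, and no other count moved by over 1.5 times (39 by the F test, 30 at 24 h and 36 at 48 h). The numbers were not taken to pair the arrays: deviations from the group means correlated above 0.1 in 19 of 45 pairs of arrays with the same number (mean 0.09) and in 25 of 90 with different numbers (mean -0.04).

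Leaving out 1 array at a time gave 33 to 44 members by the F test, 2 to 12 at 4 h, 12 to 26 at 8 h, 8 to 17 at 12 h, 19 to 34 at 24 h and 25 to 37 at 48 h. It gave 0 to 2 from 4 to 8 h, 0 to 0 from 8 to 12 h, 0 to 3 from 12 to 24 h and 0 to 2 from 24 to 48 h. In the run ZNF101 to ZNF254 it gave 6 to 14 lower at 24 h and 9 to 16 lower at 48 h, and in the run ZNF577 to ZNF331 5 to 10 higher at 8 h. The alternatives for these run counts were chosen after seeing the data. The cause of these movements was not tested.

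Quantile normalization, median centring, leaving out the genes of lowest mean and the mean of all probe sets kept every count of calls in either direction within 1.5 times. Counts in 1 direction moved more: quantile normalization took the lower calls at 12 h from 6 to 3 and at 4 h from 2 to 4, and median centring took those at 4 h from 2 to 4, at 8 h from 0 to 1 and from 12 to 24 h from 2 to 1, with 1 higher call in place of 0 in that last step. For members called at 48 h against 0 h, median centring moved the median of all genes from 0.048 to -0.067. The fit of the 6 arrays of a comparison alone was not applied to single named members. Of the 26 named members called at their largest difference, 23 stayed called under every other alternative. The exceptions were ZNF486, ZNF431 and ZNF699, each without 1 array. Most of the 26 were chosen for large differences, and the other called members were not followed singly through the alternatives. Of the 25 members called at 8 h, leaving out 1 array kept from 11 (without replicate 3 of 0 h) to 25 (without replicate 3 of 24 h). The log2 difference of ZNF536 at 4 h against 0 h, -0.18, ran from -0.41 without replicate 1 of 0 h to 0.01 (adjusted p 0.997) without replicate 2 of 0 h. Genes near background can hide changes at this number of arrays.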
